A study of Mus musculus with 4 samples.

Results

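The cytochrome P450 genes of the mouse were examined for binding of the zinc-finger DNA-binding protein CTCF in whole testis. Members were chosen by name as the protein-coding RefSeq genes whose symbol is Cyp followed by a digit, without Cyp17a1 and Cyp11a1. They numbered 97 of 21523 protein-coding genes. Peaks were selected on the position of their summits relative to these genes, and the family was picked with the low counts in its arrays already known, so the comparison of its tandem with its single members is a description. A member with another member less than 200 kb away, measured between gene bodies, was called tandem (74 genes in 12 clusters), and the other 23 were called single. The binding data were 1 merged list of 51871 peaks from CTCF chromatin immunoprecipitation followed by sequencing in testes of F1 mice from a B6 by CAST cross. The series has 2 immunoprecipitated and 2 input samples. Frozen testes were fixed while thawing, in paraformaldehyde, and the labels name no sorting of cells and no age, so germ cells and somatic cells contribute together. Each peak has a summit, its point of highest signal, with the authors' fold enrichment over background and −log10 q. The list gives 1 value per peak for the series. No spread between animals and no read depth can therefore be given, and none of the counts below carries a test.

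P450 enzymes are haem-containing monooxygenases that insert oxygen into steroids, fatty acids, vitamins and foreign compounds. Members with an old, conserved substrate mostly stand alone in the genome, whereas those that handle drugs, pheromone-like compounds and fatty acids have multiplied into tandem arrays, many of them expressed mainly in liver. CTCF marks chromatin boundaries, and together with cohesin it sets the ends of many chromatin loops, and in male meiosis the study's title places it at the attachment of loops to the chromosome axis.

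Promoter sequences from RefSeq (GRCm38.p6, 250 bases before to 50 after a start site) were matched by gene ID for 76 of the 97 members, with 85 sequences in all. The 4 shown here, 5′ to 3′ on the gene's strand, stand for the kinds of start met below. Cyp51, the sterol demethylase of cholesterol synthesis, was the only matched member with a CTCF summit inside the 300 bases, and capitals mark 21 bases centred on it (chr5:4104648-4104947, minus strand). Cyp2w1, an orphan enzyme, held the only match among member promoters to a relaxed core of the CTCF motif (CCA, 2 free bases, AG, 2 free bases, GGC) searched on both strands. It lies here on the opposite strand and is in capitals (chr5:139352366-139352665, plus strand). Cyp2r1, which starts vitamin D activation in liver, and Cyp3a11, a drug-metabolising enzyme inside a tandem array, show a CpG-rich and a CpG-poor start, with each CpG in capitals (chr7:114562923-114563222 and chr5:145879805-145880104, both minus strand). Only Cyp51 was set by the rule for printed sequences, and the other 3 were chosen after their values were seen.
Cyp51: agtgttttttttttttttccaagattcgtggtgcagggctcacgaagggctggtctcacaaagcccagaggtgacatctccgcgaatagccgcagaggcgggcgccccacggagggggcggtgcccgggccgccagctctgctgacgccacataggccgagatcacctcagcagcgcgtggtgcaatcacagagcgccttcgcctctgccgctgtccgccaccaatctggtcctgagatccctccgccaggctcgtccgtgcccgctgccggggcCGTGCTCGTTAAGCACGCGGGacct
Cyp2w1: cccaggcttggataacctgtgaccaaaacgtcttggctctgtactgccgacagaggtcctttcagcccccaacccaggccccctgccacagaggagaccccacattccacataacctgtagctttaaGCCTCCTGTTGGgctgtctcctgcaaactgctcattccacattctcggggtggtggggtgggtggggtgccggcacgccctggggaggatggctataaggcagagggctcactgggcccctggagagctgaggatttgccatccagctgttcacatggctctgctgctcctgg
Cyp2r1: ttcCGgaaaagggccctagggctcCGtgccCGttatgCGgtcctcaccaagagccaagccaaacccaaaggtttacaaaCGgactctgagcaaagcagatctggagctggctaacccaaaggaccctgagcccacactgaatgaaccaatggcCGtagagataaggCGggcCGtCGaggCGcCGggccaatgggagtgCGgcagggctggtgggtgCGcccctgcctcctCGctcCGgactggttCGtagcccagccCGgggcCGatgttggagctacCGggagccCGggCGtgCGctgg
Cyp3a11: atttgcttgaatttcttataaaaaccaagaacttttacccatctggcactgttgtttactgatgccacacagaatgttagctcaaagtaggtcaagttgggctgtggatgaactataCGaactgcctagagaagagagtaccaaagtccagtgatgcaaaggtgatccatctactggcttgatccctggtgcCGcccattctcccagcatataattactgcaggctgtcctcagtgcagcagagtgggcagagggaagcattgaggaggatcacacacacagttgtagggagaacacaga
The Cyp51 summit lay 35 bp from the start site with a fold of 5.97, in a sequence with 28 CpGs. At Cyp2r1, with 22 CpGs, a summit of fold 3.98 lay 170 bp from the start site. Cyp3a11 had 2 CpGs, and the summit nearest to it was 34.3 kb away. At Cyp2w1 the motif match carried no summit, and the nearest summit to the start site lay 1119 bp downstream, with a fold of 12.2.

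A summit lay within 1 kb of an annotated end of 10 of 23 single members (43.5%, exact Clopper-Pearson 95% interval 23.2 to 65.5) and of 4 of 74 tandem members (5.41%, 1.49 to 13.3). Over all protein-coding genes the share was 39.1% (8409 of 21523). Of all members it was 14 of 97 (14.4%, 8.12 to 23.0). These intervals cover counting error only, and neighbours in a cluster are not independent. A further 22 of 97 members had a summit inside the gene but none at an end, a share near that of all genes (5062 of 21523). The remaining 61 had neither. The last class held 55 tandem and 6 single members, against 37.4% of all protein-coding genes. A summit inside the gene was present in 14 single (60.9%) and 19 tandem members (25.7%), against 53.1% of all genes. Median distance from a gene end to the nearest summit was 1.08 kb for single members, 17.7 kb for tandem members and 2.29 kb for all genes.

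**Figure D1:**
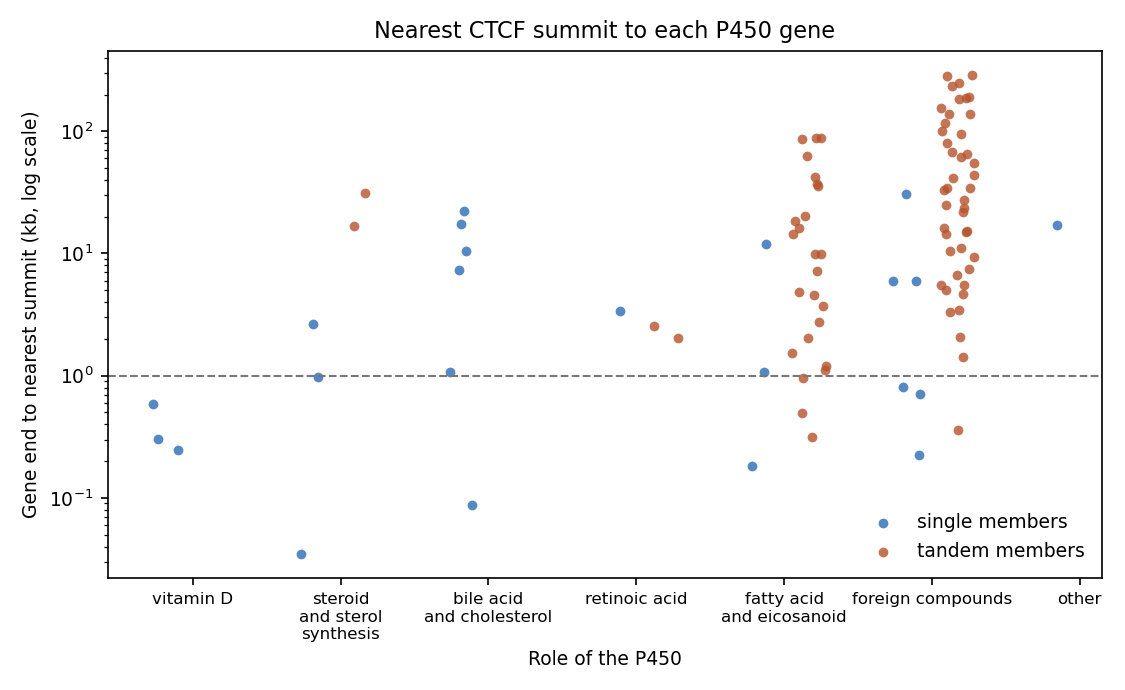
Distance in kb (log scale) from the nearer annotated end of each of the 97 P450 genes to the nearest CTCF summit, with 1 point per gene. Genes are placed by role group, which was set by gene symbol. The dashed line is 1 kb. The 3 vitamin D genes all lie under it, against 39.1% of all protein-coding genes, while tandem genes for foreign compounds reach 291 kb.

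The 16 summits at gene ends were distinct, with folds from 3.98 to 11.3 and a median of 7.02, beside 5.56 over all gene-end summits and 6.82 over all peaks. Their median −log10 q was 21, against 19.9 over the gene-end summits of all genes and 29.5 over the list. The weaker q values belonged to single members, whose 12 summits had a median −log10 q of 15.6, while the 4 tandem summits had 57.1. Among peaks with a −log10 q at or above the list's median, 2 of 23 single members (8.70%, Cyp1b1 and Cyp21a1) and 3 of 74 tandem members (4.05%, all Cyp4f) had a gene-end summit, against 17% of all genes. With a fold of at least 5 the shares were 34.8%, 5.41% and 23.7%.

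All 3 vitamin D genes had a gene-end summit (3 of 3, exact 95% interval 29.2 to 100), against 39.1% of all protein-coding genes. Their surroundings were dense, with a median of 65 summits in the 1 Mb centred on the gene, against 32 for all genes. At Cyp27b1, which makes the active hormone (chromosome 10, 127048246 to 127054884), the summit lay 590 bp inside the gene from its start, with a fold of 4.54. Cyp24a1, which degrades the hormone (chromosome 2, 170482957 to 170497145), had a summit just outside each end, at 730 and 304 bp, with folds of 7.94 and 5.27. Another summit, inside it, had a fold of 8.89. Cyp2r1 (chromosome 7, 114550123 to 114563048) had only the summit near its start described above. Of the 4 gene-end summits of these genes, 1, at Cyp24a1, was above the list's median fold, and none reached its median −log10 q.

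Among the 5 genes of steroid and sterol synthesis, 2 had a gene-end summit. Besides the summit at its start, Cyp51 (chromosome 5, 4080674 to 4104697) held a stronger one 2.69 kb inside, with a fold of 9.98. Cyp21a1, the steroid hydroxylase of the adrenal cortex (chromosome 17, 34801348 to 34804426), had a summit of fold 7.87 at 984 bp outside its upper end. Cyp19a1, aromatase (chromosome 9, 54165937 to 54268164), had none at an end but 3 inside, of which the strongest had a fold of 11.2. One of these lay 1202 bp from a start site of the promoter table, with a fold of 6.57. Cyp11b1 and Cyp11b2, which complete corticosteroid synthesis, form a pair on chromosome 15 with no summit between their outer ends.

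Of the 6 bile acid and cholesterol genes, all single, Cyp27a1 alone had a gene-end summit. This mitochondrial sterol hydroxylase (chromosome 1, 74713148 to 74737897) had 2 near its start, 87 bp inside with a fold of 4.27 and 975 bp outside with 5.47. Its strongest summit, of fold 9.39, lay 10.8 kb inside. Cyp39a1, an oxysterol hydroxylase (chromosome 17, 43667372 to 43751431), had the most summits inside of all members, 4, with folds of 6.94 to 10.5. Cyp46a1, the cholesterol hydroxylase of neurons, fell just short with a summit at 1072 bp (fold 5.07) and held 2 inside. Cyp7a1, the rate-limiting enzyme of bile acid synthesis, Cyp7b1 and Cyp8b1 had their nearest summits at 17.6, 22.2 and 10.4 kb.

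The retinoic acid hydroxylases, which clear retinoic acid, had 0 of 3 at an end (exact interval up to 70.8%), against 39.1% of all protein-coding genes. All had a summit within a few kb, near the median distance of 2.29 kb over all genes. For Cyp26c1 the distance was 2.04 kb (fold 8.35), for Cyp26a1 2.55 kb (6.35) and for Cyp26b1 3.40 kb (10.6). Cyp26b1 held 3 summits inside it.

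The fatty acid and eicosanoid enzymes had a gene-end summit at 4 of 28, all of them Cyp4f genes. Among the tandem genes these were Cyp4f16 with a fold of 8.76 at 498 bp, Cyp4f37 with 7.42 at 956 bp and Cyp4f15 with 7.42 at 316 bp. Each lay inside the gene at the end away from the start site. The single gene Cyp4f18 on chromosome 8 had its summit 182 bp beyond the same end, with a fold of 7.34. Cyp4f14 likewise had a summit 2.04 kb inside from that end (6.94). Cyp4f17, whose strand was not matched, had one at 1192 bp inside its upper end (10.7). At Cyp4f39 the nearest summit lay 1.54 kb beyond the far end (5.76), and at Cyp4f40 3.70 kb beyond it (19.5). The far end was the nearer to CTCF at 7 of the 8 Cyp4f genes of known strand, all but Cyp4f13, a count made after the values were known. Over all protein-coding genes of known strand this share was 37.1% (6408 of 17274), and over P450 genes of known strand 35 of 76 (46.1%). The Cyp4f genes share ancestry and, but for Cyp4f18, lie on 1 stretch of chromosome 17. Cyp4a (8 genes) and Cyp2j (7 genes) had no gene-end summit. The exception nearest to the limit was Cyp2j9, whose summit (fold 3.40, −log10 q 3.68) lay 1121 bp from the annotated end but 83 bp from the start site of the promoter table.

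The group for foreign compounds, the largest with 51 members, was set by gene symbol and not by known substrate. It took every Cyp1 and Cyp3 gene and the Cyp2 genes not placed elsewhere, the orphan Cyp2w1 included. The fatty acid group likewise took every Cyp4 and Cyp2j gene, and Cyp2u1. In the group for foreign compounds 4 genes had a gene-end summit, which were 3 of 6 single and 1 of 45 tandem members. The highest gene-end fold of all members, 11.3, was at Cyp1b1, an enzyme induced through the aryl hydrocarbon receptor (chromosome 17, 79706940 to 79715061), 705 bp outside its start. Its relative Cyp1a1 (chromosome 9, 57687928 to 57703824) had a summit of 8.43 at 360 bp from its lower annotated end, which is 9325 bp from the start site in the promoter table. A summit of fold 10.6 lay closer to that start site, at 1286 bp. Cyp2w1 (chromosome 5, 139352616 to 139359607) had a summit of 6.71 at 809 bp from its far end and 2 further ones inside. Cyp3a13 (chromosome 5, 137892933 to 137925610), the only Cyp3a gene outside the array, had a summit of 5.54 at 224 bp from its far end. The other 8 Cyp3a genes had none, nor did any of 15 Cyp2c, 8 Cyp2d, 5 Cyp2b or 4 Cyp2a genes. Cyp20a1, the only member that fell in none of the role groups, lay 17 kb from a summit.

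Around the 1 kb limit, 3 members had their nearest summit between 800 bp and the limit (Cyp2w1, Cyp4f37 and Cyp21a1). Beyond it, 5 had theirs at up to 1500 bp: Cyp46a1, Cyp2u1 (1082 bp, fold 3.49), Cyp2j9, Cyp4f17 and Cyp2t4 (1419 bp, 7.31). Where the strand was known, 7 gene-end summits were at the end nearer the start site, Cyp1a1 included, and 6 at the far end. Counting start sites alone, 5 of 16 matched single members and 1 of 60 matched tandem members, Cyp2j9, had a summit within 1 kb, against 37.1% of all matched genes. A member with a gene-end summit was present in 2 of the 12 clusters, Cyp4f39 to Cyp4f15 and Cyp1a2 to Cyp1a1. Leaving out both Cyp4f clusters, which was added once the data were known, brought the tandem share to 1 of 66 (1.52%).

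**Figure D2:**
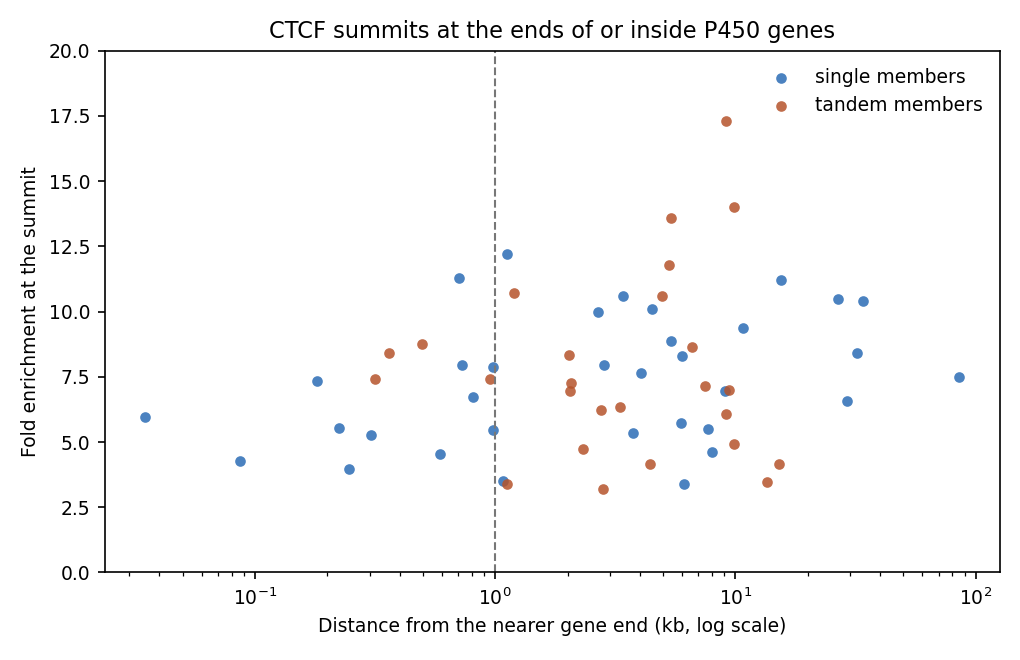
Fold enrichment of every CTCF summit at an end of or inside a P450 gene (60 distinct summits) against distance in kb (log scale) from the nearer gene end. Left of the dashed line at 1 kb most points belong to single genes (12 of 16), while the highest fold, 17.3, lies inside the tandem gene Cyp2b10.

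Gene length was similar in the 2 classes, while a 1 Mb window centred on the gene held fewer peaks for tandem than for single members. Median gene length was 22.9 kb for tandem and 21.2 kb for single members, against 17.4 kb for all genes. From 10 to 40 kb of length, 4 of 41 tandem (9.76%) and 6 of 14 single members (42.9%) had a gene-end summit, against 43.5% of all genes. Under 10 kb these were 0 of 19 and 4 of 5, against 30.7%, and from 40 kb on 0 of 14 and 0 of 4, against 44.0%. Within 1 Mb centred on the gene lay a median of 24 summits for tandem members, 35 for single members and 32 for all genes. For tandem members this window takes in all or part of the array itself. Pooled over all clusters, the 500 kb on either side held 41.2 peaks per Mb, but this differed between clusters. The flanks lay below their chromosome's density at Cyp2j, Cyp2c and Cyp4f14 to Cyp4f13, and above it at the other clusters. The window also counts the gene's own end summits, so classes made from it are not independent of them. When all genes were divided by the count in this window into 4 classes of like size, tandem members had 0 of 27, 0 of 22, 3 of 20 and 1 of 5 bound from the sparsest to the densest class. For single members the counts were 0 of 2, 3 of 9, 0 of 3 and 7 of 9. All genes gave 18.8%, 37.3%, 46.3% and 55.3%. The part of local peak density in the difference was not tested.

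Promoter sequence also differed between the classes. Each promoter was aligned with those of the other members, and the highest identity was taken. By this measure tandem genes had a median of 76.0%, from 57.3% to 99.3%, and single genes 60.8%, from 59.0% to 64.0%. The low values were also reached by promoters of different subfamilies, such as Cyp51 with Cyp2r1 (60.7%), and mark no close relation. The 21 members without a sequence could not serve as matches, so a gene whose closest copy is among them may score too low. An identity of 80% or more was reached by 25 genes, all tandem, and 0 of these had a gene-end summit. Among the 35 tandem genes under 80%, 4 did (11.4%), against 8 of the 16 matched single genes. Among the promoters given, the pairs most alike were Cyp2b9 and Cyp2b13 (99.3%), Cyp2a4 and Cyp2a5 (98.0%) and Cyp3a41a and Cyp3a41b (97.3%). How reads from such similar copies were placed is not given in the sources used here, and its part in the result was not tested. CpGs per promoter had a median of 2 in tandem genes, 6 in single genes and 13 over all protein-coding genes. Over all promoters, those with a summit within 1 kb had a median of 23 CpGs and the others 6. The relaxed motif was in 1 of 85 member promoters (1.18%) and in 2.37% of all promoters of that length.

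**Figure D3:**
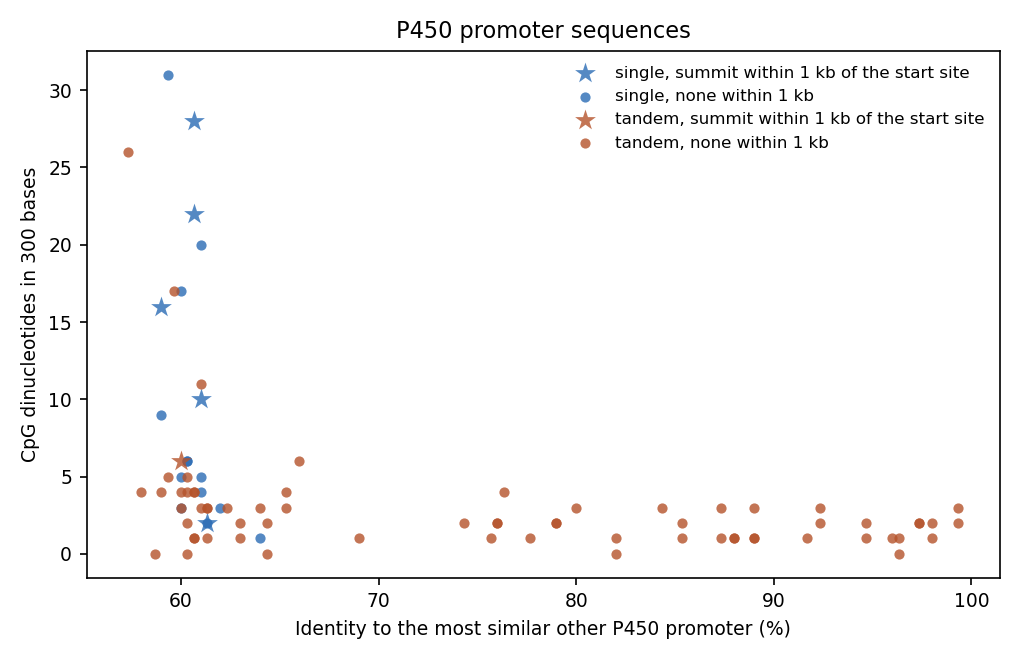
CpG count in each 300-base P450 promoter (85 sequences of 76 genes) against its identity in percent to the most similar promoter of another P450 gene. Stars mark the 6 start sites with a CTCF summit within 1 kb, 5 single and 1 tandem, all at identities from 59.0% to 61.3%, while points to the right of 80% are all tandem and unstarred.

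The 12 clusters spanned 4.90 Mb and held 49 summits, or 10 per Mb (exact Poisson 95% interval 7.39 to 13.2, counting error only), of which 26 lay inside member genes. The 500 kb on either side held 41.2 per Mb and the autosomes 20.9 per Mb. Some of these flanks overlap a neighbouring cluster, on chromosomes 7 and 17. Density was lower inside than in the flanks for 9 clusters, among them every cluster of 3 or more members. Of these 8, the interval inside contained the flank value at Cyp4f39 to Cyp4f15, Cyp2s1 to Cyp2a4 and Cyp2j. It lay below the flank value at the other 5. The flank values have counting error of their own, so neither outcome is a test of a difference. The 3 clusters with higher density inside were pairs, Cyp1a, Cyp26 and Cyp4f14 to Cyp4f13, with 2 summits each and very wide intervals. Without the Cyp2 clusters of chromosome 7 the density fell to 7.19 per Mb, also added once the data were known.

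**Figure D4:**
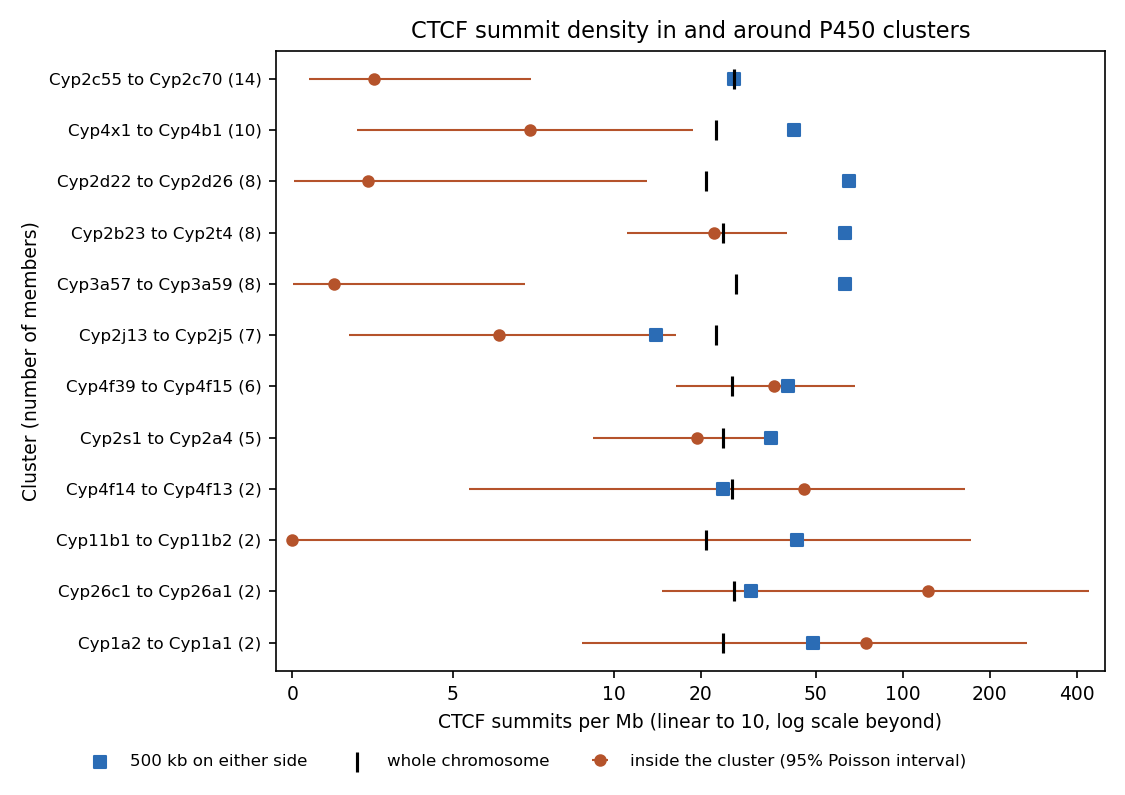
CTCF summits per Mb (linear to 10, log scale beyond) inside each of the 12 P450 clusters with the exact 95% Poisson interval, in the 500 kb on either side, and over the chromosome. The Cyp2c, Cyp2d and Cyp3a arrays lie at 1.30 to 2.54 per Mb, left of both their flanks and their chromosomes.

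The Cyp3a array, whose enzymes clear many drugs and steroids (8 genes, chromosome 5, 145345149 to 146114978), held 1 summit in 770 kb. It had a fold of 5.07 and lay 14.4 kb from Cyp3a44, so the density was 1.30 per Mb against 63.0 in the flanks. Cyp3a57, Cyp3a16, Cyp3a41b, Cyp3a41a and Cyp3a44 lay whole in a stretch of 540 kb without a summit. The Cyp2c array, which oxidises drugs and arachidonic acid (14 genes, chromosome 19, 39006940 to 40187286), held 3 summits in 1180 kb, with folds of 6.76, 4.64 and 4.14. Its longest stretch without one, 831 kb, took in 8 genes from Cyp2c66 to Cyp2c69. That stretch ranked 229 among 51610 intervals between neighbouring summits, whose median was 18.1 kb and 99th percentile 540 kb. The Cyp2d array (8 genes, chromosome 15, 82370527 to 82794452) held 1 summit, of fold 11.6, 10.5 kb from Cyp2d10. Beyond it, 388 kb with 5 whole genes had none.

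The arrays of the fatty acid and eicosanoid group on chromosome 4 were sparse as well. Cyp2j (7 genes, 96042660 to 96664171) held 4 summits with a median fold of 4.33, or 6.44 per Mb against 14.0 in flanks that were themselves below the chromosome's 22.6. Cyp4x1 to Cyp4b1 (10 genes, 115106323 to 115647721) also held 4, or 7.39 per Mb against 42.0. Here the strongest, of fold 10.2, lay 4.82 kb from Cyp4a30b, and the 234 kb from it to the next summit took in 5 whole genes, Cyp4a14 to Cyp4b1.

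The Cyp4f array and the Cyp2 clusters of chromosome 7 carried more summits. Cyp4f39 to Cyp4f15 (6 genes, chromosome 17, 32452697 to 32703352) held 9, or 35.9 per Mb (16.4 to 68.2) against 40 in the flanks and 25.6 over the chromosome, and 5 of its 6 genes had 1 or more inside. Its strongest, of fold 19.5 and −log10 q 94.5, lay between Cyp4f40 and Cyp4f15, 3.70 kb from the former. A fold of 15 or more is reached by 2.60% of all peaks. Cyp4f39 held 3 summits, the strongest of fold 14.0. The gap between Cyp4f15 and Cyp4f14 is just over the 200 kb limit, so Cyp4f14 and Cyp4f13 counted as a cluster of their own, with 2 summits. On chromosome 7, Cyp2s1 to Cyp2a4 (5 genes, 25802469 to 26315088) held 10 summits and Cyp2b23 to Cyp2t4 (8 genes, 26665227 to 27158564) held 11, or 19.5 (9.35 to 35.9) and 22.3 per Mb (11.1 to 39.9), against 35 and 63 in their flanks. They stood at folds of up to 17.3, inside Cyp2b10, and 13.6, inside Cyp2b19. Cyp2f2, a lung enzyme that activates naphthalene, held 3. No member in either cluster had a summit within 1 kb of an end, so these summits lay in the interiors of members and between members. Pseudogenes are not members, and a summit in Cyp2s1 to Cyp2a4 lay at an end of the pseudogene Cyp2b28-ps.

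**Figure D5:**
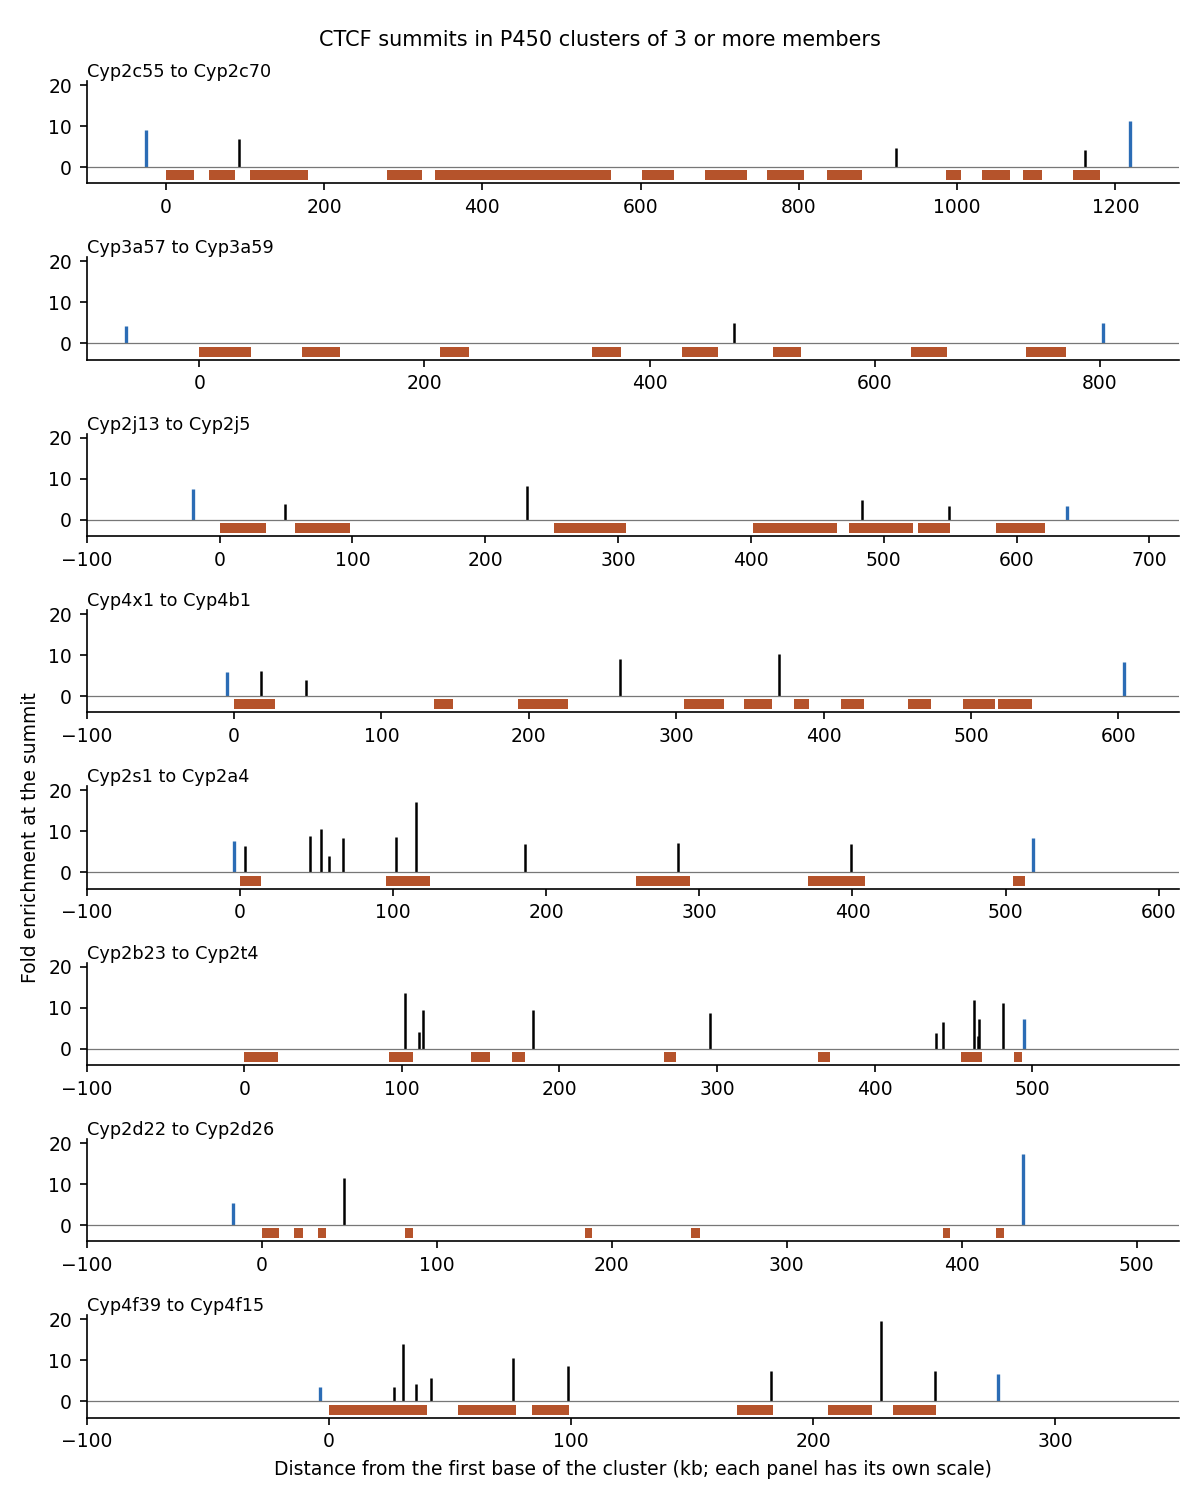
P450 genes (brown bars) and CTCF summits (lines, height is fold enrichment) along the 8 clusters of 3 or more members, in kb from the first base of each cluster. Black lines are summits inside the cluster and blue lines are the nearest summit beyond each outer end where it lies within 100 kb; other flanking summits are not drawn. Long stretches without a line run through Cyp2c, Cyp3a and Cyp2d.

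A summit lay within 50 kb outside 20 of 24 outer ends, against 75.1% of the outer sides of all protein-coding genes. Both ends had one in 8 of 12 clusters, against 63.3% of all genes, and the other 4 clusters had a summit at 1 end. These shares lie near those of all genes and are no result about the clusters. The nearest summit beyond an outer end was a median of 16.6 kb away, from 1.42 to 345 kb. Its median fold was 7.94 (3.32 to 17.3), beside 7.28 for summits inside the clusters (3.20 to 19.5). Of the 24 ends, 15 had a summit before the next protein-coding gene that was not a member. The same share was not computed for all genes, so this count too is no result about the clusters.

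The strongest border summit, of fold 17.3 and −log10 q 90.1, lay 11 kb beyond Cyp2d26 on chromosome 15 (82805449), before the neighbouring gene Tcf20. On the other side of that array a summit of 5.45 stood 16.1 kb before Cyp2d22. The Cyp2c array lay between summits of 9, 24.8 kb before Cyp2c55, and 11.3, 38.3 kb beyond Cyp2c70, both above the 3 inside. Around the Cyp3a array the border summits were low, with 4.34 at 64.7 kb before Cyp3a57 and 5.03 at 33.1 kb beyond Cyp3a59. The Cyp2j array had 7.42 at 19.6 kb and 3.32 at 16.3 kb, and Cyp4x1 to Cyp4b1 had 5.86 at 4.55 kb and 8.32 at 62.3 kb. At Cyp4f39 to Cyp4f15 they had folds of 3.61 and 6.74, below the strongest inside. The Cyp2s1 to Cyp2a4 cluster had 7.57 at 3.69 kb and 8.31 at 5.47 kb. From the last of these to the first summit inside Cyp2b23 to Cyp2t4 ran 447 kb without a summit, so Cyp2b23 had its lower border summit 345 kb away. At the other end of that cluster a summit of 7.31 lay 1.42 kb beyond Cyp2t4, past the near end of Egln2. Among the pairs, Cyp1a2 to Cyp1a1 lay between folds of 10.5 (17 kb) and 10.3 (8.59 kb), and Cyp11b1 to Cyp11b2 between 9.85 (35.0 kb) and 10.3 (16.9 kb). Both border summits thus had a higher fold than every summit inside at Cyp2c, while at Cyp4f39 to Cyp4f15 both were within the range of those inside (3.47 to 19.5).

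Other gene families gave values in between. The keratin genes, all 53 of them tandem by the same rule, had a gene-end summit at 7 (13.2%, exact interval 5.48 to 25.3), which overlaps the interval of the tandem P450 genes. Of the Adam and Adamts protease genes, 4 of 25 tandem (16.0%, exact interval 4.54 to 36.1) and 8 of 28 single members (28.6%, 13.2 to 48.7) had one. These 2 intervals overlap widely, so they cannot tell whether the lower tandem share of the Adam and Adamts genes repeats the P450 difference. Median gene length also differed, at 9.90 kb for their tandem and 97.1 kb for their single members. No difference between families was tested. A list of 23 related genes, all of them matched, was examined as well. It comprised electron donors and haem-binding partners, the haem synthesis gene Alas1, the P450 enzymes of other name Ptgis and Tbxas1, the aryl hydrocarbon receptor Ahr with its partner Arnt, and nuclear receptors that raise or lower P450 genes. A gene-end summit was present at 6 (26.1%, exact interval 10.2 to 48.4), against 39.1% of all genes. The bound genes were the mitochondrial electron carriers Fdxr (8.46) and Fdx2 (5.41), Cyb5b (6.99), the xenobiotic receptor Nr1i2 (6.47), Pgrmc2 (5.21) and the prostacyclin synthase Ptgis (2.60). For Por, which passes electrons to the microsomal P450 enzymes, the nearest summit lay at 2.04 kb. Among the 17 genes without a gene-end summit the distance ran from 1.13 kb at Nr1h3 to 28 kb at Cyb5a.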

How the data were processed

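CTCF chromatin immunoprecipitation and input samples of mouse testis (2 of each) were sequenced. Per the submitters' processing notes, MACS2 2.2.7, BWA 0.7.12 and the build mm10 were used, in roles that the notes leave out. The authors deposited 1 merged peak list whose peak names hold the words bio2 and merged, so it is not settled whether 1 or both samples entered it. For each peak the authors deposited a score, a fold enrichment (a ratio to background) and the −log10 of a p and of a q, and the lowest −log10 q was 1.308. The deposited score and −log10 p were not used. Fold and −log10 q are the authors' own and served only to describe and filter peaks of this list.

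Summits were start plus offset, written 1-based. Genes were placed by RefSeq's GRCm38.p6 table, which shares its chromosome coordinates with mm10. Exons and introns were not analysed here, and genes starting below 3 Mb were left out as scaffold coordinates. Strand and start sites came from the promoter table. A cluster ran from the first to the last base of its members. Named genes were all members with a gene-end summit, the end members of clusters of 3 or more, members with a nearest summit at 800 to 1500 bp and those with the most summits inside (6 because of ties). Other genes, which complete a role or mark a summit or a stretch in a cluster, were named after their values were seen. Promoters were aligned globally with Biopython 1.88 (match 1, mismatch -1, gap opening -2, gap extension -1) and identity was matches per 300 bases. Python 3.11.15, pandas 2.3.3 and scipy 1.17.1 were used, and the counting was tested on simulated peaks. Members, lists and comparisons were chosen with earlier results of these data known. Alternatives were stricter peaks, other windows, peak overlap in place of the summit, other tandem and border distances and start sites only. Depth is unknown, no value per sample was used, and no test was run.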

Additional observations from a re-analysis of the deposited data

How the results depend on the processing

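Of 53 alternatives, 32 kept the reported value and 21 moved, and 6 were added after the data were seen. Counts had to stay within 1.5 times, and shares, densities and the median fold within the interval of the reported value. The ratio to all peaks had to stay on the same side of 1. Every alternative for the share of all genes moved, as its interval was only 38.4 to 39.7. In all 8 settings where both were computed, the tandem share stayed below the single share. These settings re-cut 1 peak list, for a family picked with its low array counts known, so they are no independent support. With members under 500 kb apart both shares were the same as reported. The 14 members with a gene-end summit became 5 with peaks of at least the median −log10 q, 9 with a 500 bp window, 23 with 2500 bp and 6 with start sites only. For tandem members the share rose to 14.9% at 2500 bp, and for single members it fell to 8.70% with the −log10 q limit. Cluster density was 7.34 per Mb with fold at least 5, 4.90 with the −log10 q limit and 7.19 without the Cyp2 clusters of chromosome 7. Clusters with both borders fell from 8 to 5 with the −log10 q limit, with a 25 kb border and with members under 100 kb apart (then of 18 clusters). The share of all genes was 23.7% with fold at least 5, 17% with the −log10 q limit, 31.4% and 51.1% at 500 and 2500 bp, 42.8% by peak overlap and 37.1% at start sites. Partner genes went from 6 to 1 with the −log10 q limit and 11 at 2500 bp. The median of gene-end summits relative to all peaks was 1.03 by fold and 0.713 by −log10 q. Stricter peak sets hold fewer peaks by construction; the cause of the other shifts was not tested. No paired analysis was possible because the list gives 1 value per peak and none per sample. For the same reason no replicate could be left out.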

Other observations

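Of 34 annotated pseudogenes of the P450 family, 4 had a CTCF summit within 1 kb of an end (11.8%, exact 95% interval 3.30 to 27.5), against 5.62% of all 10229 pseudogenes. These were Cyp4f41-ps with a fold of 11.2, Cyp2j15-ps with 8.21, Cyp21a2-ps with 7.89 and Cyp2b28-ps with 7.01. Among them, Cyp4f41-ps, Cyp2j15-ps and Cyp2b28-ps coincide with summits counted above at the border of or inside the Cyp4f, Cyp2j and Cyp2s1 to Cyp2a4 clusters.

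Some duplicated genes carried summits at like places with like values. Cyp21a1 and its pseudogene Cyp21a2-ps were alike: the summit lay 0.984 kb from the gene (fold 7.87) and 0.965 kb from the pseudogene (7.89). Inside Cyp2b13 and Cyp2b9, whose promoters were 99.3% identical, the summits lay 27225 and 27820 bp from the start sites, with folds of 7.14 and 7.01. The summit 39 bp from Cyp2b28-ps also had a fold of 7.01, and −log10 q was 18.6 at all 3. Whether these are separate binding events or reads shared among copies was not tested.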
